A study of Mus musculus with 18 samples.

Results

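The genes described here are those of the proteasome, taken as every gene whose symbol starts with Psma, Psmb, Psmc, Psmd, Psme, Psmf or Psmg and that had a probe detected above the array's negative controls (detection p under 0.05) on at least 4 of 18 arrays. That rule gave 42 genes of the 10605 named genes with such a probe. They were measured in AML12, a line of immortalized mouse hepatocytes, on 1-colour Illumina BeadChips, in a study of lipids as a carbon source for histone acetylation. Cells had been seeded at 350000 per well, left overnight in complete medium with 10% serum, and given either PBS (5 arrays) or octanoate, an 8-carbon fatty acid, at 1 mM (4 arrays), 2 mM (5 arrays) or 5 mM (4 arrays) for 24 h. All groups were of this 1 line and carried no labelled genetic change. The line was originally grown from mice that carried a transgene for human TGF-alpha, so it is a growing culture and not resting liver. Replicates are numbered in the labels, with no word on whether each came from its own culture. The p-values therefore speak only to how far these samples vary among themselves, and that variation may be technical.

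The proteasome is the main protease of the cytosol and nucleus, and it degrades proteins that carry ubiquitin chains. Its core particle, the 20S, is a stack of alpha rings around beta rings, and the beta rings hold the proteolytic sites, on Psmb5, Psmb6 and Psmb7. The 19S cap on its end recognises ubiquitin, removes it, and unfolds the substrate with a ring of ATPases. Under interferon, and constitutively in leukocytes, Psmb8, Psmb9 and Psmb10 take the places of Psmb5, Psmb6 and Psmb7 and form the immunoproteasome, which favours the peptides that MHC class I presents. In liver cells, as elsewhere, transcription of the standard subunits can be raised by the factor NRF1 (Nfe2l1) when proteasome activity falls short.

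Before the results, the arrays themselves. Of 49 symbols under the rule with any named probe, 42 passed and 7 did not. Psma1, Psma3, Psma6 and Psmd3 were detected on 0 of 18 arrays, and Psmb11 and Psmg4 on 1 each. Non-detection by a probe does not show that its gene was off, and whether these probes work was not tested. Psma8, the testis alpha subunit, was detected on 3, of which 1 was at 1 mM and 2 at 2 mM. The inhibitor Psmf1 and the paralog Psme2b had no named probe here. Of the 42 members, 40 were detected on all 18 arrays and the exceptions were Psmb8 and Psmb9, whose signals lay near the background. The arrays lay on 3 BeadChips: the first held every PBS array and 1 mM replicate 1, the second held the other 3 arrays at 1 mM with 2 mM replicates 1 to 3, and the third 2 mM replicates 4 and 5 with every 5 mM array. Dose and BeadChip therefore overlap, and each comparison with PBS that keeps BeadChip in the model runs through 1 mM replicate 1 alone. The number of detected probes per array was 17446 to 18483 in PBS and 18643 to 19842 at 5 mM. An earlier look at these data had set apart 1 mM replicates 1 and 4 and 2 mM replicate 5 on a principal component, and counts without them are given below. Of the hepatocyte markers, 7 of 10 passed the detection filter. Alb and Fgb were detected on no array, so albumin could not be followed here. Whether their transcripts were absent or their probes failed was not tested. The summed level of the hepatocyte markers was 7700 to 8250 in PBS and 25100 to 27100 at 5 mM. That of the leukocyte markers was 126 to 139 in PBS and 126 to 138 at 5 mM, with Adgre1, Cd3e and Lyz2 detected on no array.

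At 5 mM octanoate, members of the proteasome set were more often lower than higher. Against PBS, 20 of 42 were lower (47.6%) and 7 were higher (16.7%), at an adjusted p under 0.05 in limma after Benjamini-Hochberg adjustment over all tested probes. Of all 10605 named genes, 26.7% were lower, 31.9% higher and 58.7% called in either direction. The members' median log2 fold change was -0.19, against 0.01 for all genes. Changes were mostly small: the median size was 0.24 on the log2 scale, against 0.33 for all genes, and 3 members changed by at least 2-fold (7.14%, against 12.1% of all genes). Those 3 were Psmb10 and Psmc3ip, which fell, and Psmb9, which rose. With BeadChip as a term in the model, 5 members were lower and 2 higher, beside 12.0% lower and 16.1% higher of all genes. The share of members lower was then near the background. Their median was -0.24 (median SE of a member 0.21, against 0.086 without the term). With each array scaled to a common median in place of quantile normalization, the median of all genes moved to 0.12 and that of the members to -0.13, and 3 members were higher (Psmb8, Psmb9 and Psme2) and 8 lower (Psmb2, Psmb10, Psmc3ip, Psmd7, Psmd14, Psme3, Psmg1 and Psmg2), beside 33.8% higher and 16.3% lower of all genes.

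At the lower doses fewer members were called. At 2 mM, 10 were lower and 6 higher (38.1% called), where 18.7% of all genes were lower, 22.1% higher and 40.8% called, so the share called was near the background. At 1 mM, 5 were lower and 2 higher (16.7% called), beside 8.49% lower, 11.1% higher and 19.6% called among all genes. The members' median was -0.09 at 2 mM and -0.04 at 1 mM. Keeping BeadChip in the model left 1 higher and 1 lower at 2 mM, and 1 higher and 0 lower at 1 mM. Among all genes that model gave 7.9% higher and 4.49% lower at 2 mM, and 4.68% and 2.81% at 1 mM. Without the 3 arrays set apart, 4 members were higher and 9 lower at 2 mM, and 2 higher and 1 lower at 1 mM. The counts of members at 5 mM did not move. The 3 comparisons share the PBS arrays.

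Between doses, the step from 2 to 5 mM held most of the calls. From 2 to 5 mM, 7 members fell (Psmb10, Psmc3ip, Psmb2, Psmb3, Psmd10, Psme3 and Psmg2) and 1 rose (Psmb9), with a background of 14.6% lower, 18.9% higher and 33.5% called in any direction. Of these 8 calls, 4 were lost when certain single arrays were left out. They were Psmb2 (2 mM replicates 1, 3 and 5 and 5 mM replicates 1, 2 and 4, adjusted p 0.0706 to 0.124), Psmb3 (2 mM replicates 2, 3 and 5 and each 5 mM array, adjusted p 0.0511 to 0.114), Psmd10 (2 mM replicates 1, 2 and 4 and 5 mM replicates 1, 3 and 4, adjusted p 0.0512 to 0.119) and Psmg2 (5 mM replicates 1 and 3, adjusted p 0.0501 and 0.0506). From 1 to 2 mM, Psmb10 fell and Psmd8 rose, where 1.69% of all genes were lower, 4.26% higher and 5.95% called. Group means fell at each step from PBS to 1, 2 and 5 mM in 17 of 42 members (40.5%), against 18.8% of all genes. Means rose at each step in 5 members (11.9%), namely Psmb1, Psmb7, Psmb8, Psmb9 and Psme4, against 23.4% of all genes. The heat map of the members on each array shows both patterns.

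**Figure D1:**
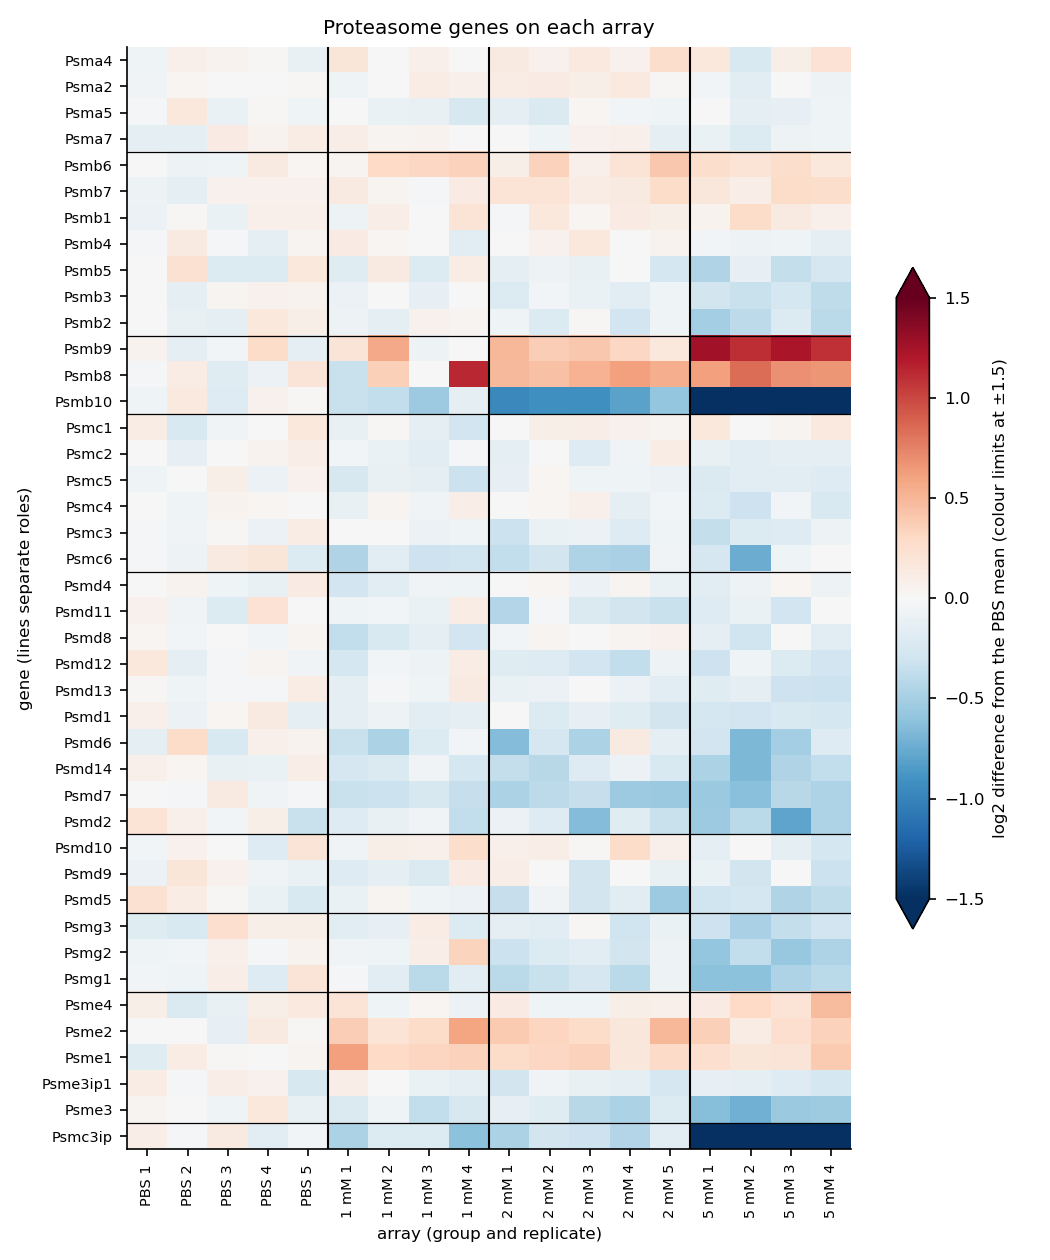
Normalized log2 intensity of the 42 proteasome genes on each of the 18 arrays, as the difference from that gene's PBS mean (rows are genes grouped by role, columns are arrays grouped by dose, and colours stop at a difference of 1.5). The darkest blue cells are Psmb10 and Psmc3ip on the 4 arrays at 5 mM, and the darkest red are Psmb9 at 5 mM and Psmb8 on 1 mM replicate 4.

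The alpha ring of the 20S core showed no call at any dose on the probe with the highest mean for each gene, which stands for a gene throughout. Among all genes, 58.7% were called at 5 mM, 40.8% at 2 mM and 19.6% at 1 mM. Alpha subunits frame the gate through which substrates enter. The 4 measured members, Psma2, Psma4, Psma5 and Psma7, had log2 fold changes of -0.12 to 0.06 at 5 mM, -0.09 to 0.14 at 2 mM and -0.11 to 0.07 at 1 mM, each with an SE of 0.06 to 0.09. A further Psma5 probe was lower at 2 mM (-0.38, limma adjusted p = 0.0492) and was at -0.33 at 1 and 5 mM without a call. Psma2 means were 13.34 ± 0.03 in PBS (SD, n = 5) and 13.27 ± 0.07 at 5 mM (SD, n = 4), on the normalized log2 intensity scale.

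Standard beta subunits went in both directions. At 5 mM, 3 of 7 were lower and 2 higher. Among all genes, 26.7% were lower, 31.9% higher and 58.7% called, so calls in both directions were common in the background. Psmb2 and Psmb3, subunits without a proteolytic site, fell by 0.38 and 0.31 on the log2 scale (SE 0.09 and 0.07, limma adjusted p = 0.00102 and 0.000689), and their 5 mM arrays lay below all PBS arrays. A further Psmb2 probe gave -0.08 at 5 mM without a call, and was higher at 1 mM by 0.25 (adjusted p = 0.0186), where the first gave -0.03. Psmb1 and Psmb4, also without a site, were at 0.14 and -0.08 and were not called.

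The 3 catalytic subunits were split as well. Psmb5 carries the chymotrypsin-like site, which the drug bortezomib inhibits. Its level was 9.15, 9.39, 8.96, 8.96 and 9.32 on PBS replicates 1 to 5, 8.98, 9.29, 8.96 and 9.27 at 1 mM, 9.02, 9.08, 9.05, 9.17 and 8.90 at 2 mM, and 8.71, 9.04, 8.80 and 8.91 at 5 mM. The 5 mM arrays were the lowest as a group, but 1 of them, replicate 2, lay within the PBS range. Psmb5 fell by 0.29 ± 0.11 at 5 mM (SE, limma adjusted p = 0.026), and the call was lost without any 1 of PBS replicate 2, PBS replicate 5, 5 mM replicate 1 or 5 mM replicate 3 (adjusted p 0.0657 to 0.0913). At 1 and 2 mM it was at -0.03 and -0.12 and not called.

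Psmb6 carries the caspase-like site. It measured 11.74, 11.66, 11.67, 11.87 and 11.77 in PBS, 11.78, 12.04, 12.05 and 12.08 at 1 mM, 11.83, 12.08, 11.82, 11.94 and 12.15 at 2 mM, and 12.00, 11.94, 12.00 and 11.90 at 5 mM. All 5 mM arrays were above all PBS arrays, while at 1 mM the array on the first BeadChip stayed within the PBS range and the 3 on the second did not. The rise was 0.22 at both 2 mM and 5 mM (SE 0.08 and 0.09, limma adjusted p = 0.0383 and 0.0396), its other probe gave 0.19 at 5 mM (adjusted p = 0.0302), and 0.25 at 1 mM missed the threshold (adjusted p = 0.0539). With BeadChip in the model the sign turned, to -0.11 at 2 mM and -0.19 at 5 mM (adjusted p = 0.726 and 0.511). Leaving out any 1 of 7 arrays also ended the call at 5 mM (PBS replicates 1, 2, 3 and 5, and 5 mM replicates 1, 2 and 3, adjusted p 0.0507 to 0.088), and any 1 of 7 ended it at 2 mM (PBS replicates 1, 2, 3 and 5, and 2 mM replicates 2, 4 and 5, adjusted p 0.051 to 0.107).

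Psmb7 carries the trypsin-like site. Its values were 11.45, 11.40, 11.60, 11.60 and 11.60 in PBS, 11.66, 11.57, 11.50 and 11.65 at 1 mM, 11.74, 11.73, 11.64, 11.67 and 11.80 at 2 mM, and 11.70, 11.63, 11.81 and 11.79 at 5 mM. Every 2 mM and 5 mM array was above every PBS array. It rose by 0.19 ± 0.07 at 2 mM and 0.20 ± 0.07 at 5 mM (SE, limma adjusted p = 0.0376 and 0.0238), yet the 3 other Psmb7 probes, at 0.08, 0.07 and -0.09 at 5 mM, were not called, and the mean over the 4 probes was 0.06 at 5 mM (adjusted p = 0.379). Leaving out PBS replicate 1 or 2, or 5 mM replicate 3 or 4, ended the 5 mM call (adjusted p 0.057 to 0.0754); at 2 mM, leaving out PBS replicate 1 or 2, or 2 mM replicate 1, 2 or 5, did so (adjusted p 0.0673 to 0.102).

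Psmb10, an immunoproteasome subunit, had the largest log2 fold change of the set at the highest dose (-2.44). Psmc3ip, which is no proteasome subunit, came next at -2.02, ahead of Psmb9 (1.18) and Psmb8 (0.70). The immunoproteasome subunits did not move together: Psmb10 fell and Psmb9 rose. Psmb8, near background, also rose, but its sign turned with BeadChip in the model (-0.23). The promoters of the 3 genes, which share an interferon-linked role but moved in opposite directions here, are printed from the RefSeq table of build GRCm38.p6, from 250 bases before to 50 after the annotated start. Capitals mark matches to the motifs named further on.

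Psmb8 (chr17:34197945-34198244, plus strand): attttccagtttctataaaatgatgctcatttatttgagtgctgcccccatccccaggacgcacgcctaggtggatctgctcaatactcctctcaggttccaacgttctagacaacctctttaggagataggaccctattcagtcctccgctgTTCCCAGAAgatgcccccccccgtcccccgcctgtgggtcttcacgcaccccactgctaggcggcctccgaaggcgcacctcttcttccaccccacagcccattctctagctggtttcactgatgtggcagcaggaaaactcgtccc

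Psmb9 (chr17:34187281-34187580, minus strand): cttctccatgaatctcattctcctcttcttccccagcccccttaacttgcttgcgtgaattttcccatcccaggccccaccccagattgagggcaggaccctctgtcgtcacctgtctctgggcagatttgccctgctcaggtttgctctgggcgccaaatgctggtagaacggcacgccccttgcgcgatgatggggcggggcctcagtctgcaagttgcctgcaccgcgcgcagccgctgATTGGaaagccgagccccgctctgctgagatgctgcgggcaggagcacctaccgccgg

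Psmb10 (chr8:105938343-105938642, minus strand): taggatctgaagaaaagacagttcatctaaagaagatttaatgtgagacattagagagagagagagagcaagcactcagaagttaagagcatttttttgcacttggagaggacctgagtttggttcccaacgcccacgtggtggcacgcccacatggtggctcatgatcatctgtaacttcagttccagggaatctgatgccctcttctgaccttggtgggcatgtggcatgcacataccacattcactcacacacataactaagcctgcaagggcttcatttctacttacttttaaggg

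Psmb10 (MECL-1) takes the place of Psmb7. On PBS replicates 1 to 5 it measured 10.00, 10.22, 9.88, 10.14 and 10.09, and at 1 mM 9.74, 9.70, 9.52 and 9.93. At 2 mM it measured 9.10, 9.15, 9.15, 9.27 and 9.49, and at 5 mM 7.58, 7.75, 7.55 and 7.62. The levels stepped down with dose: 1 mM replicate 4 was the only array of its group inside the PBS range, every 2 mM array was below every 1 mM array, and every 5 mM array was far below every 2 mM array. The order of the group means was PBS, 1 mM, 2 mM and 5 mM from high to low, and each neighbouring pair was called in limma. Psmb10 fell by 0.34 ± 0.10 at 1 mM (SE, adjusted p = 0.0189), by 0.83 ± 0.09 at 2 mM (adjusted p = 7.54e-07) and by 2.44 ± 0.10 at 5 mM (adjusted p = 4.3e-14), the last a level 5.44-fold lower. Between doses it fell by 0.49 ± 0.10 from 1 to 2 mM (adjusted p = 0.00518) and changed by -1.61 ± 0.10 from 2 to 5 mM (adjusted p = 9.12e-11).

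The other Psmb10 probe gave -2.20 at 5 mM and -0.83 at 2 mM, and -0.19 at 1 mM without a call. In the model with BeadChip, the values were -0.33 at 1 mM (adjusted p = 0.214), -0.91 at 2 mM (adjusted p = 0.00513) and -2.66 at 5 mM (adjusted p = 1.79e-07), so the 2 and 5 mM calls held and the 1 mM call did not. With median scaling the difference from 1 to 2 mM was -0.37 and not called (adjusted p = 0.181). The 1 mM call was also lost without PBS replicate 2 (adjusted p = 0.0504) or 1 mM replicate 3 (adjusted p = 0.0734). Ordered by log2 fold change at 5 mM from the lowest, Psmb10 stood at place 75 of 10605 named genes.

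Psmb9 (LMP2) takes the place of Psmb6. Its signal was close to background in PBS, where it was detected on 2 of 5 arrays, and it was detected on 2 of 4 at 1 mM, 5 of 5 at 2 mM and 4 of 4 at 5 mM. It measured 4.88, 4.68, 4.79, 5.10 and 4.68 in PBS, 5.02, 5.40, 4.75 and 4.83 at 1 mM, 5.33, 5.20, 5.24, 5.14 and 4.99 at 2 mM, and 6.09, 5.94, 6.05 and 5.93 at 5 mM. The 5 mM arrays were above all others, and the other 3 groups overlapped. Psmb9 rose by 1.18 ± 0.12 at 5 mM (SE, limma adjusted p = 4.72e-08, 2.26-fold) and by 0.35 ± 0.11 at 2 mM (adjusted p = 0.0171), and 0.18 at 1 mM was not called. From 2 to 5 mM it rose by 0.82 ± 0.12 (adjusted p = 1.88e-05).

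The 5 mM rise of Psmb9 was 1.39 with BeadChip in the model (adjusted p = 0.00171), whereas the 2 mM value of 0.46 was then not called (adjusted p = 0.255). On the scale of the authors' processed log2 values the 5 mM difference was 0.20 (adjusted p = 6.56e-07) and the 2 mM difference 0.04 (adjusted p = 0.126). The call at 5 mM was thus the same on both scales, but its size depends on how background is treated near the detection limit.

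Psmb8 (LMP7) takes the place of Psmb5. It was detected on 4 of 5 PBS arrays, 3 of 4 at 1 mM and every array at 2 and 5 mM. It measured 4.96, 5.10, 4.81, 4.90 and 5.18 in PBS, 4.66, 5.35, 4.99 and 6.12 at 1 mM, 5.48, 5.43, 5.51, 5.60 and 5.53 at 2 mM, and 5.60, 5.83, 5.68 and 5.65 at 5 mM. The 2 and 5 mM arrays were all above PBS, but the 1 mM arrays ranged from the lowest to the highest of all 18. Psmb8 rose by 0.52 ± 0.17 at 2 mM and 0.70 ± 0.18 at 5 mM (SE, limma adjusted p = 0.0225 and 0.00306), and the 2 mM call was lost without PBS replicate 3 (adjusted p = 0.0551). With BeadChip in the model the sign turned, to -0.35 and -0.23 (adjusted p = 0.537 and 0.717). On the first BeadChip the 1 mM array, at 4.66, was below every PBS array, and on the third the 5 mM arrays, at 5.60 to 5.83, stood beside 5.60 and 5.53 at 2 mM. On the authors' processed values the 5 mM difference was 0.11 (adjusted p = 0.0139) and the 2 mM difference, 0.07, was not called.

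**Figure D2:**
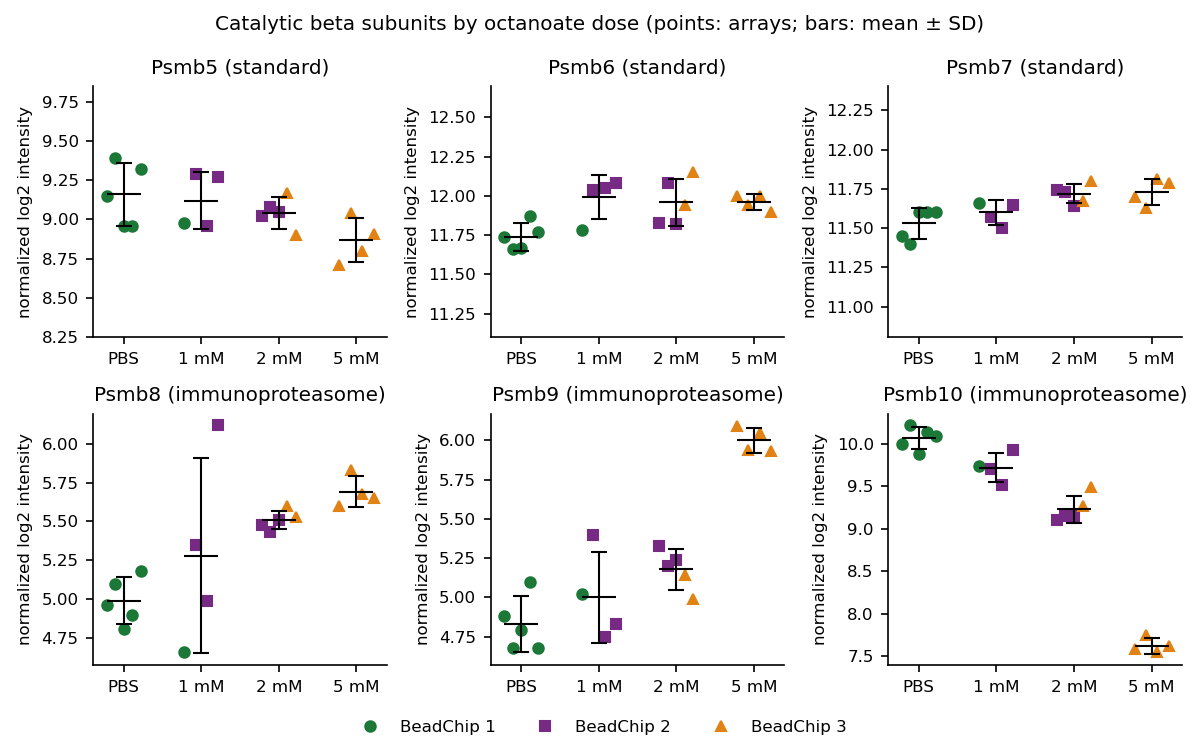
Normalized log2 intensity of the 3 standard catalytic subunits (top) and the immunoproteasome subunits that replace them (bottom) by octanoate dose (points are arrays, with shape and colour for BeadChip; bars are mean ± SD; vertical ranges differ between panels). Psmb10 drops to 7.55 to 7.75 at 5 mM, Psmb9 rises to 5.93 to 6.09, and Psmb8 spans 4.66 to 6.12 at 1 mM.

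Against PBS, every call in the 19S cap was lower. Of its 16 measured subunits, 10 were lower at 5 mM and 0 higher (median -0.21), 5 were lower and 0 higher at 2 mM, and 3 were lower and 0 higher at 1 mM. Among all genes, 26.7% were lower and 31.9% higher at 5 mM. At 2 mM these shares were 18.7% and 22.1%, and at 1 mM 8.49% and 11.1%. Of the 11 standard 20S subunits, 3 were lower and 2 higher at 5 mM (median -0.08). The difference between cap and core was not tested, and with median scaling Psmd7 and Psmd14 were the cap subunits still called. Standard 26S subunits as a whole, 27 genes, had 13 lower and 2 higher at 5 mM with a median of -0.19.

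Among the ATPases, which unfold substrates and thread them into the core, 3 of 6 fell at 5 mM, beside 26.7% lower of all genes. Psmc3, Psmc4 and Psmc5 fell by 0.21, 0.20 and 0.19 (limma adjusted p = 0.029, 0.0273 and 0.0242), and of these only the Psmc5 arrays at 5 mM, 10.87 to 10.92, lay wholly below PBS, 11.00 to 11.18. Psmc5 also fell by 0.21 at 1 mM (adjusted p = 0.0407). Its other probe gave 0.14 at 1 mM and -0.05 at 5 mM and was called at neither (adjusted p = 0.235 and 0.619). Each of these calls depended on single arrays. At 5 mM, Psmc3 lost it without PBS replicate 3 or 5 or 5 mM replicate 1 or 2 (adjusted p 0.0532 to 0.12), Psmc4 without PBS replicate 3 or 4 or 5 mM replicate 1, 2 or 4 (adjusted p 0.0501 to 0.0972), and Psmc5 without PBS replicate 3 or 5 or 5 mM replicate 1 (adjusted p 0.0528 to 0.0601). At 1 mM, Psmc5 lost it without any 1 of 7 arrays (PBS replicates 2, 3 and 5, 1 mM replicates 1, 3 and 4 and 5 mM replicate 3, adjusted p 0.0504 to 0.128). Psmc6 was lower at 2 mM by 0.33 (adjusted p = 0.0422), while its 5 mM value of -0.27 was not called, and the 2 mM call was lost without any 1 of PBS replicates 1 to 4 and 2 mM replicates 1 to 4 (adjusted p 0.0508 to 0.102). Psmc1 and Psmc2 were not called, with 0.09 and -0.14 at 5 mM, but the other Psmc2 probe fell by 0.37 at 1 mM and 0.38 at 2 mM (adjusted p = 0.0498 and 0.0172).

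Of the 10 other cap subunits, 7 fell at 5 mM, beside 26.7% lower of all genes. Psmd14, the deubiquitinase that removes chains as substrates enter, measured 11.05, 11.00, 10.86, 10.87 and 11.07 in PBS and 10.50, 10.30, 10.52 and 10.60 at 5 mM, without overlap. It fell by 0.49 ± 0.09 at 5 mM (SE, limma adjusted p = 7.31e-05), and by 0.73 with BeadChip in the model (adjusted p = 0.0152), while its other probe gave -0.15 and was not called. Psmd2, a scaffold that binds ubiquitin receptors, fell by 0.55 ± 0.12 (adjusted p = 0.000715), and its other probe fell by 0.80. Psmd1, the other large scaffold, fell by 0.26, and its other probes by 0.30 and 0.56.

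Psmd7 is the inactive partner of Psmd14. It was one of 5 members called at all 3 doses. Its levels were 11.64, 11.62, 11.78, 11.60 and 11.63 in PBS, 11.32, 11.33, 11.41 and 11.30 at 1 mM, 11.17, 11.26, 11.30, 11.11 and 11.09 at 2 mM, and 11.09, 11.02, 11.23 and 11.19 at 5 mM. No octanoate array reached the lowest PBS array. Psmd7 fell by 0.31 at 1 mM, 0.47 at 2 mM and 0.52 at 5 mM (SE 0.07 each, limma adjusted p = 0.00536, 2.31e-05 and 4.29e-06). Its 2 other probes, at -0.06 and -0.18 at 1 mM, were not called there and fell by 0.45 and 0.58 at 5 mM. In the model with BeadChip, none of the 3 values was called (-0.34, -0.44 and -0.41, adjusted p 0.0619 to 0.0976), and without the 3 arrays set apart the 1 mM value was -0.28 (adjusted p = 0.0598).

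Psmd8, a lid subunit, had a call at 1 mM that was absent at the higher doses. It measured 12.24, 12.17, 12.22, 12.17 and 12.25 in PBS, 11.84, 11.98, 12.07 and 11.92 at 1 mM, 12.17, 12.25, 12.20, 12.25 and 12.27 at 2 mM, and 12.07, 11.91, 12.20 and 12.04 at 5 mM. The 1 mM arrays were all below PBS and the 2 mM arrays were back among the PBS values. It fell by 0.26 ± 0.07 at 1 mM (SE, limma adjusted p = 0.017) and rose by 0.28 ± 0.07 from 1 to 2 mM (adjusted p = 0.0314). The 1 mM call was lost without 1 mM replicate 1 (adjusted p = 0.0536), without the 3 arrays set apart (-0.18, adjusted p = 0.194), and with BeadChip in the model (-0.37, adjusted p = 0.0678), and the other Psmd8 probe gave 0.07. The rise from 1 to 2 mM was lost without any 1 of 1 mM replicates 1, 2 and 4 and 2 mM replicates 2, 4 and 5 (adjusted p 0.0578 to 0.0905).

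Among the remaining cap subunits, 3 were called at 5 mM. Psmd6, Psmd12 and Psmd13 fell by 0.42, 0.21 and 0.23 at 5 mM (limma adjusted p = 0.019, 0.0496 and 0.0119), of which Psmd13 alone had no overlap with PBS, and Psmd6 fell by 0.96 with BeadChip in the model (adjusted p = 0.0326). Further probes of Psmd6 and Psmd12 fell by 0.62 and 0.45 at 5 mM (adjusted p = 0.000175 and 0.00167). The Psmd6 call was lost without PBS replicate 2 or 5 mM replicate 2 or 3 (adjusted p 0.0523 to 0.079), and the Psmd12 call without any 1 of 12 arrays, among them PBS replicates 1, 3, 4 and 5 and 5 mM replicates 1, 3 and 4 (adjusted p 0.055 to 0.134). Psmd11 was lower at 2 mM by 0.26 (adjusted p = 0.026), against -0.15 without a call at 5 mM, and the 2 mM call was lost without PBS replicate 1 or 4 or 2 mM replicate 1 or 5 (adjusted p 0.0546 to 0.0804). Psmd4, which binds ubiquitin chains, was not called at any dose, with -0.08 at 5 mM.

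All 3 measured chaperones of 20S assembly fell at 5 mM, where 26.7% of all genes were lower. Psmg1 and Psmg2 act as a pair that starts the alpha ring, and they fell by 0.52 ± 0.10 and 0.49 ± 0.09 (SE, limma adjusted p = 0.00012 and 6.04e-05). Psmg2 measured 9.78, 9.81, 9.93, 9.82 and 9.90 in PBS and 9.27, 9.48, 9.28 and 9.39 at 5 mM, with no overlap; its other probes fell by 0.69 and 0.37. With BeadChip in the model Psmg2 fell by 0.71 (adjusted p = 0.0181) and Psmg1, at -0.39, was not called (adjusted p = 0.245). Psmg3, of the second pair, fell by 0.37 (adjusted p = 0.004), or -0.35 with BeadChip (adjusted p = 0.337).

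Among the 3 chaperones of the cap's ATPase ring, Psmd5 fell by 0.35 at 5 mM (limma adjusted p = 0.00597). Psmd10 (gankyrin) and Psmd9 were at -0.14 and -0.17 and were not called against PBS, though Psmd10 fell by 0.25 from 2 to 5 mM (adjusted p = 0.0364). Other probes of both were called: for Psmd9, 1 fell by 0.55 at 5 mM and by 0.47 at 2 mM (adjusted p = 0.0171 and 0.0449), and for Psmd10, 1 of 2 fell by 0.25 at 5 mM (adjusted p = 0.0405).

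The activators, which cap the 20S core in place of the 19S, split by kind. Psme1 and Psme2 form the interferon-linked PA28 ring and were the only members higher at all 3 doses. Psme1 measured 10.47, 10.76, 10.67, 10.64 and 10.69 in PBS, 11.27, 10.95, 10.97 and 10.99 at 1 mM, 10.92, 10.96, 11.00, 10.82 and 10.94 at 2 mM, and 10.90, 10.83, 10.84 and 11.04 at 5 mM. Every octanoate array was above every PBS array. Psme1 rose by 0.40, 0.28 and 0.25 at 1, 2 and 5 mM (SE 0.08 each, limma adjusted p = 0.00248, 0.00795 and 0.0147), and neighbouring doses did not differ beyond their spread (-0.12 from 1 to 2 mM and -0.03 from 2 to 5 mM, adjusted p = 0.472 and 0.844). Its other probe rose by 0.31, 0.30 and 0.26. In the model with BeadChip, the rises were 0.62, 0.61 and 0.63 (adjusted p = 0.00684, 0.017 and 0.0168), more than 1.5 times the plain values; they rest on 1 mM replicate 1, at 11.27 the highest Psme1 value of all arrays. Without 5 mM replicate 4 the 5 mM value was 0.20 (adjusted p = 0.0637). With median scaling the values were 0.21, 0.20 and 0.33, and none was called (adjusted p = 0.354, 0.303 and 0.0537).

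Psme2 measured 8.57, 8.58, 8.46, 8.71 and 8.60 in PBS, 8.95, 8.79, 8.86 and 9.17 at 1 mM, 8.97, 8.90, 8.86, 8.75 and 9.08 at 2 mM, and 8.94, 8.69, 8.83 and 8.93 at 5 mM. Of the octanoate arrays, 5 mM replicate 2 alone fell inside the PBS range. It rose by 0.36, 0.33 and 0.27 (SE 0.09 each, limma adjusted p = 0.00983, 0.00487 and 0.0179). With BeadChip in the model none of these was called (0.36, 0.33 and 0.27, adjusted p 0.175 to 0.438), and without the 3 arrays set apart the 1 mM value was 0.24 (adjusted p = 0.131). The 5 mM call was also lost without 5 mM replicate 1 or 4 (adjusted p = 0.0567 and 0.0566). Psme1 and Psme2 lie close together on chromosome 14 with Emc9 between them.

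Psme3, the nuclear PA28-gamma, went the other way. Its 5 mM arrays, 9.11, 9.03, 9.19 and 9.22, lay below all PBS arrays, 9.79, 9.74, 9.69, 9.91 and 9.64. It fell by 0.62 ± 0.09 at 5 mM (SE, limma adjusted p = 6.09e-06) and by 0.29 at 2 mM (adjusted p = 0.0111), and with BeadChip in the model the 5 mM value was -0.51 without a call (adjusted p = 0.104). Psme4 (PA200), an activator linked to histone degradation, rose by 0.28 at 5 mM on its brighter probe (adjusted p = 0.0188), while its other probe gave -0.22 without a call, so its direction is uncertain, and the call was lost without PBS replicate 2 or 5 mM replicate 4 (adjusted p = 0.0582 and 0.0877). Psme3ip1, a protein that binds Psme3, was at -0.18 at 5 mM and not called, while its other probe fell by 0.27 at 5 mM and by 0.37 at 2 mM (adjusted p = 0.00301 and 0.000242).

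Psmc3ip matches the symbol rule but is no proteasome subunit: it is HOP2, a partner of MND1 in homologous recombination. It measured 9.32, 9.20, 9.36, 9.05 and 9.18 in PBS, 8.74, 9.01, 9.01 and 8.60 at 1 mM, 8.74, 8.95, 8.91, 8.78 and 9.06 at 2 mM, and 7.20, 7.21, 7.03 and 7.37 at 5 mM. Its 1 and 2 mM groups overlapped each other and the 5 mM arrays lay far below both. It fell by 2.02 ± 0.10 at 5 mM (SE, limma adjusted p = 1.6e-12, 4.05-fold lower), against 0.38 at 1 mM and 0.33 at 2 mM (adjusted p = 0.0139 and 0.0101). In the model with BeadChip, the 5 mM value was -2.21 (adjusted p = 5.59e-06) and those at 1 and 2 mM, -0.48 and -0.49, were not called. The 1 mM call was lost without 1 mM replicate 4 (adjusted p = 0.0612) and without the 3 arrays set apart (adjusted p = 0.233), and the 5 mM value was -1.25 on the authors' processed values. The proliferation genes measured, Cdc20, Plk1, Mcm5 and Top2a, fell with it, their summed level going from 9260 to 10000 in PBS to 1140 to 1340 at 5 mM. Their part in this result was not tested.

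**Figure D3:**
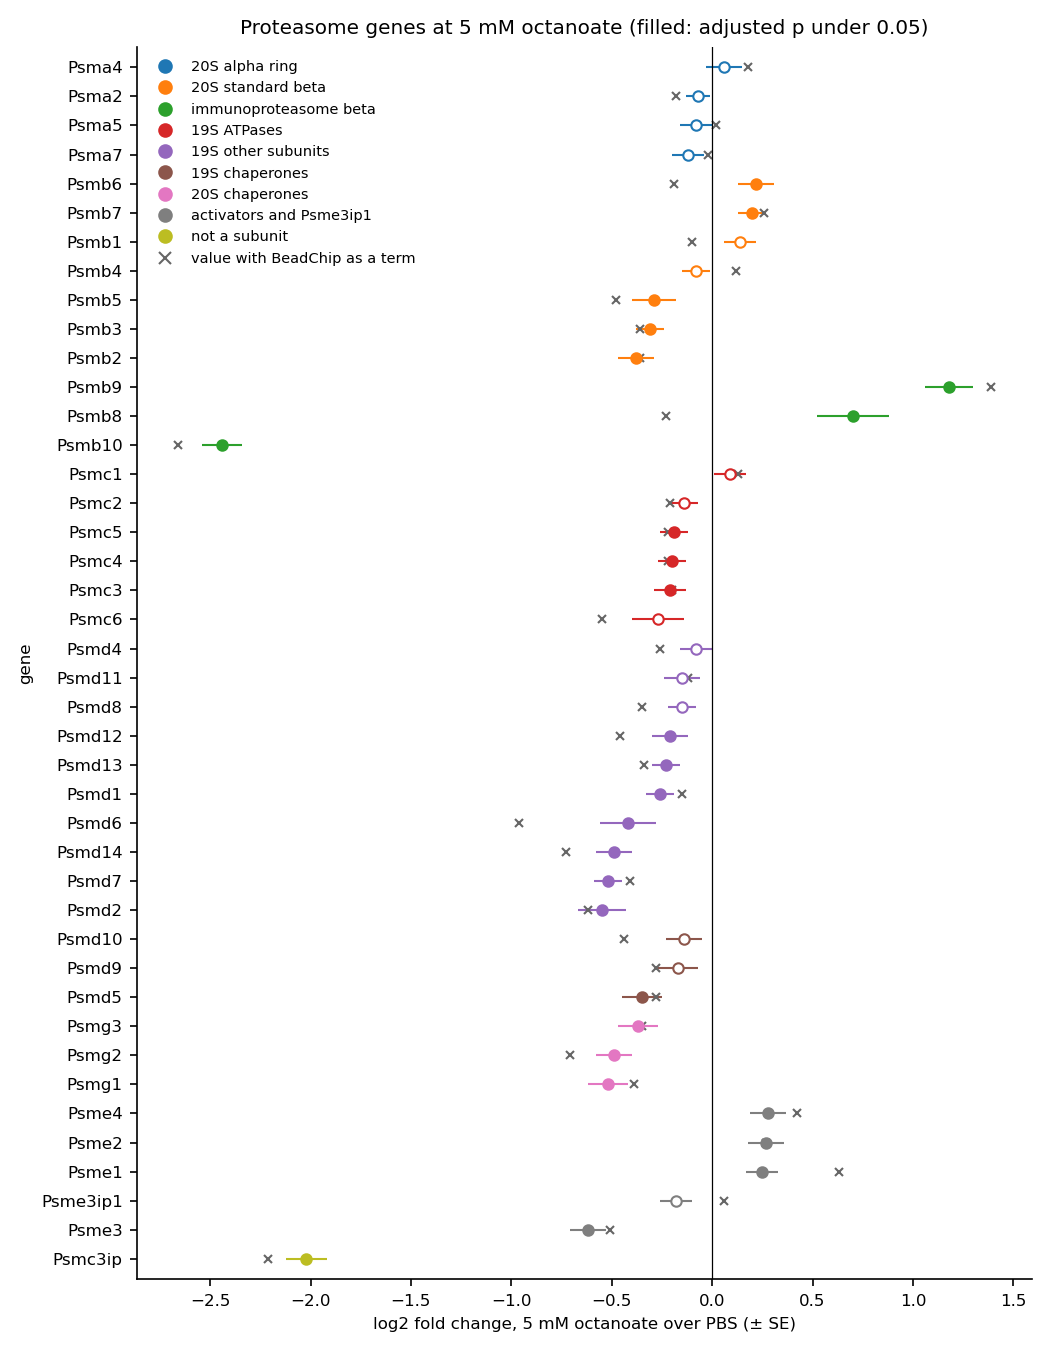
Log2 fold change of each of the 42 genes at 5 mM octanoate over PBS with its SE (circles, coloured by role and filled where the limma adjusted p was under 0.05), beside the value with BeadChip as a term (crosses). Most cap subunits and all 20S chaperones lie left of 0, Psmb10 and Psmc3ip lie beyond -2, and of the called genes, Psmb8 and Psmb6 have crosses on the other side of 0 from their circles.

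Over the 3 doses, 12 members were not called against PBS at any of them on the probe that stood for the gene: Psma2, Psma4, Psma5, Psma7, Psmb1, Psmb4, Psmc1, Psmc2, Psmd4, Psmd9, Psmd10 and Psme3ip1. Of these, Psma5, Psmc2, Psmd9, Psmd10 and Psme3ip1 each had another probe called lower at 1 or more doses. The 5 called at all 3 were Psme1 and Psme2 (higher) and Psmb10, Psmc3ip and Psmd7 (lower). Of 27 calls at 5 mM, 7 kept their call and direction with BeadChip in the model, namely Psmb10, Psmb9, Psmc3ip, Psmd14, Psmd6, Psme1 and Psmg2. From 2 to 5 mM, where both groups share the third BeadChip, 4 of 8 did: Psmb10 (-1.75), Psmb9 (0.94), Psmc3ip (-1.72) and Psmd10 (-0.32).

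**Figure D4:**
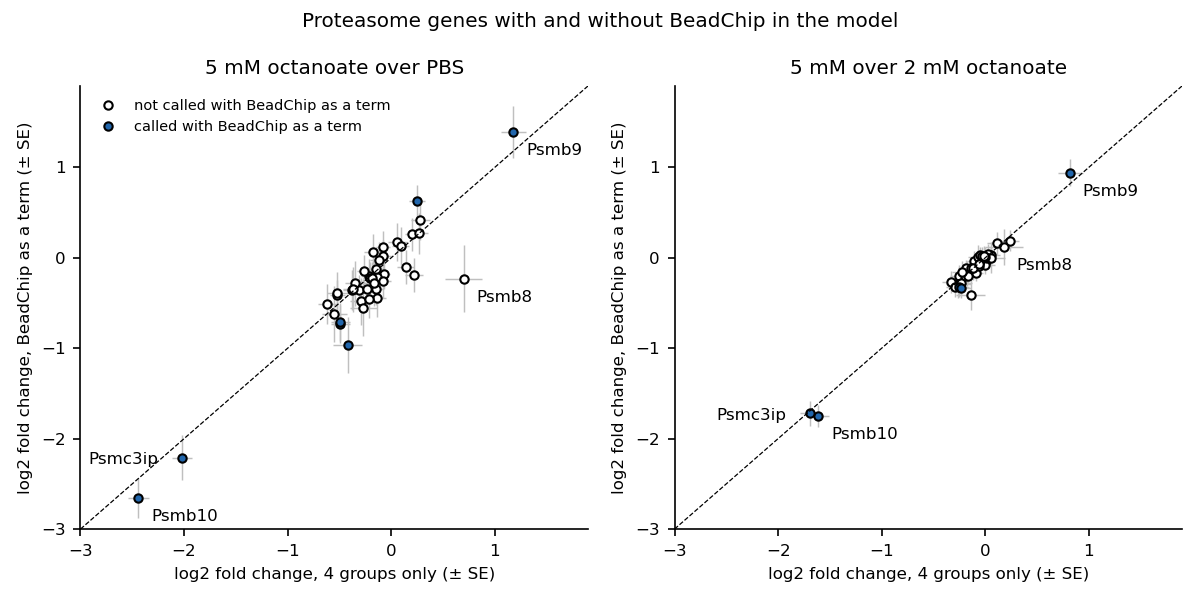
Log2 fold change of the 42 genes from the model of the 4 groups (horizontal) and with BeadChip as a term (vertical), for 5 mM over PBS and 5 mM over 2 mM (grey lines are SE, the dashed line marks equal values, and filled points were called with BeadChip as a term). Psmb9, Psmb10 and Psmc3ip lie near the line in both panels, and Psmb8 lies well below it at 5 mM over PBS, at 0.70 against -0.23.

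Genes that act with the proteasome were described from lists drawn up by function. Of 7 measured factors that bind or build it, Uchl5 alone was lower at 5 mM and Pomp alone was higher, where 58.7% of all genes were called. Uchl5, the deubiquitinase of the cap, went from 10.99 to 11.26 in PBS to 10.18 to 10.33 at 5 mM and fell by 0.84 ± 0.07 (SE, limma adjusted p = 5.78e-09), or by 0.69 with BeadChip (adjusted p = 0.0081). Pomp, which helps beta subunits into the core, rose by 0.15 (adjusted p = 0.0438), with 0.07 and no call with BeadChip. Adrm1, the ubiquitin receptor that holds Uchl5, had no named probe here.

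In the same list, Sem1, a small cap subunit outside the symbol rule, was at -0.19 (adjusted p = 0.0789). The Pomp call was lost without any 1 of 10 arrays (adjusted p 0.0501 to 0.113).

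Of 8 measured genes around NRF1 and its relative NRF2, 4 were lower and 2 higher at 5 mM, beside 26.7% lower and 31.9% higher of all genes, so the share called was near the background. Nfe2l1 measured 10.63, 10.56, 10.54, 10.50 and 10.69 in PBS and 10.92, 10.96, 10.82 and 10.89 at 5 mM, above all PBS arrays. It rose by 0.31 ± 0.08 (SE, limma adjusted p = 0.00225) and was at -0.09 and -0.07 at 1 and 2 mM without a call; with BeadChip the 5 mM value was 0.52 (adjusted p = 0.0592). Nfe2l2 rose by 0.32 and 0.31 at 2 and 5 mM (adjusted p = 0.00704 and 0.00846), and the sign turned with BeadChip, to -0.04 and -0.09 (adjusted p = 0.926 and 0.795). Keap1, the adaptor that marks NRF2 for degradation, fell by 0.33, 0.54 and 1.01 at 1, 2 and 5 mM, and by 1.18 at 5 mM with BeadChip (adjusted p = 0.000394). Maff and Mafg, small partners of both factors, fell by 1.14 and 0.42 at 5 mM (adjusted p = 3.31e-07 and 0.000309).

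Of 9 measured genes of ubiquitin supply and shuttling, 4 were lower and 0 higher at 5 mM, where 58.7% of all genes were called. Zfand2a, a stress-induced protein that binds the proteasome, fell by 0.93, 1.20 and 0.95 at 1, 2 and 5 mM (limma adjusted p = 1.32e-06, 2.99e-09 and 3.71e-08) and kept its call with BeadChip at each dose. Ubqln4 and Sqstm1, which carry ubiquitylated proteins, fell by 0.31 and 0.26 at 5 mM.

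The genes that carry, load or trim immunoproteasome peptides, or drive their expression, went in both directions at 5 mM. Of 9 measured, 6 were called higher and 3 lower, beside 31.9% higher and 26.7% lower of all genes. Tap1 and Nlrc5 passed the detection filter through the 5 mM arrays alone, Tap2 through octanoate arrays alone and Erap1 mainly through the PBS arrays. The calls of these genes follow from the filter, and the count supports nothing. Tap2, a peptide transporter subunit beside Psmb8 on chromosome 17, was not detected on any PBS array and measured 6.62, 6.82, 6.42 and 6.56 at 5 mM, at least 3.35-fold higher (measured means 4.57 and 6.60). Tap1 and Nlrc5, the class I transactivator, were detected on the 5 mM arrays alone, at least 1.11-fold and 1.30-fold higher there than in PBS. These bounds set the 5 mM mean against the higher, per PBS array, of the probe's own value and the lowest signal among detected probes. H2-D1, B2m and H2-K1 rose by 0.73, 0.29 and 0.33, with the caution that class I genes are near-identical and probes may not tell them apart. The H2-K1 call was lost without PBS replicate 3 or 5 or 5 mM replicate 3 or 4 (adjusted p 0.0546 to 0.0876).

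Tapbp (tapasin) moved the other way, from 7.32, 7.43, 7.28, 7.20 and 7.44 in PBS to 6.39, 6.59, 6.26 and 6.26 at 5 mM, and fell by 0.96 ± 0.10 (SE, limma adjusted p = 1.12e-07). Irf1, the interferon factor known to drive the Psmb9 and Tap1 promoter, fell by 0.56 (adjusted p = 1.55e-05), with -0.49 and no call with BeadChip (adjusted p = 0.114). Erap1, which trims peptides, was detected on 4 of 5 PBS arrays and no 5 mM array, at least 1.27-fold lower. With BeadChip, H2-D1 rose by 0.65 (adjusted p = 0.0241) and Tapbp fell by 1.19 (adjusted p = 0.00172). Tap1 and Nlrc5 passed the filter through the 5 mM arrays alone, and Tap2 through octanoate arrays alone. The model with BeadChip is therefore no check of their calls, and its values are not given. In such bulk samples, a change in the kinds of cell present and a change in RNA per cell cannot be told apart.

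**Figure D5:**
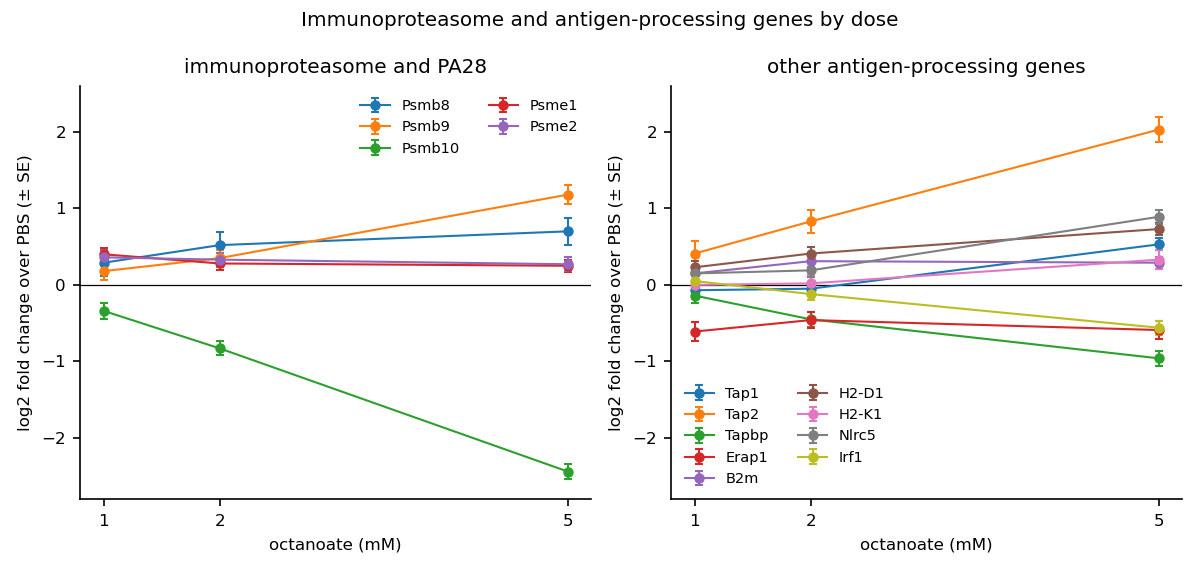
Log2 fold change over PBS (± SE) at 1, 2 and 5 mM octanoate for the immunoproteasome and PA28 subunits (left) and for other antigen-processing genes (right). Psmb9 rises by 1.18 at 5 mM, Psmb10 falls by 2.44 and Tapbp by 0.96, and Psme1 and Psme2 stay within 0.25 to 0.40 at all doses. Points for Tap1, Tap2, Nlrc5 and Erap1 are fitted to arrays where these genes were in part not detected, so their heights are not sizes of change.

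In the RefSeq order of protein-coding genes on chromosome 17, Psmb9, Tap1, Psmb8 and Tap2 follow each other inside the MHC, while Psmb10 lies on chromosome 8 between Ctrl and Lcat. Psmb9 and Psmb8 were called higher at 5 mM and Psmb10 lower, although Psmb8 turned to -0.23 with BeadChip in the model. Tap1 passed the detection filter through the 5 mM arrays alone and Tap2 through octanoate arrays alone, so neither is counted beside them. The Psmb9 and Tap1 promoter windows lie head to head on opposite strands and share 275 bases, so the Psmb9 sequence above is nearly that of Tap1 read from the other strand.

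Promoter windows were found for 36 of the 42 members, as 39 windows. The core of the antioxidant response element, through which NRF1 and NRF2 act, was searched as TGACNNNGC on both strands. It stood in the windows of 6 members (Psmb5, Psmb6, Psmc6, Psmd9, Psmd12 and Psme4), 15.4% of the members' windows against 12.4% of all 32851. Psmb5 and Psmb6 are shown because they carry this core just before their start, at positions -47 and -9, and had opposite signs at 5 mM (-0.29 and 0.22), though with BeadChip in the model both were below 0 and uncalled (-0.48 and -0.19).

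Psmb5 (chr14:54617946-54618245, minus strand): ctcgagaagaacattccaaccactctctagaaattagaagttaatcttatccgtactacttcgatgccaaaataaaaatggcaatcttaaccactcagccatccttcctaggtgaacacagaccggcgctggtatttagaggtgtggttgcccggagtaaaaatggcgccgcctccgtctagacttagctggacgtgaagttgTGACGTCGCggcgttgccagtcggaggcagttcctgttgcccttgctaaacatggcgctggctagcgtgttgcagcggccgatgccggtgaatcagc

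Psmb6 (chr11:70525107-70525406, plus strand): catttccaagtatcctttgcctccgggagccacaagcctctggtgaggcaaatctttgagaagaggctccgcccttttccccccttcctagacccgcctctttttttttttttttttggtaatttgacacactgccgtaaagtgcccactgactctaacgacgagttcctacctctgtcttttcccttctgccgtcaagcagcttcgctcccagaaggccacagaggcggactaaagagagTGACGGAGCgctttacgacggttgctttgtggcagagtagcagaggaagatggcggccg

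The core of the interferon-stimulated response element, searched as GAAANNGAA, also stood in 15.4% of the members' windows (Psmb3, Psmb4, Psmc2, Psmd4, Psmd9 and Psme1), against 8.56% of all. The CCAAT box stood in 30.8%, against 37.4%. The core of the gamma-activated site, TTCNNNGAA, stood in 7.69% (Psmb8, Psmd2 and Psmg1), against 8.30%, and was added after the values were known. In the immunoproteasome windows printed above, the capitals are TTCCCAGAA at position -97 of Psmb8 and ATTGG, a reverse CCAAT box, at position -8 of Psmb9; Psmb10 had none of the 4. These matches are descriptions of letters in short windows.

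Across the 18 arrays, the named genes whose values ran most like Psmb8 were Dctn4, Ciao1, Fads3, Zfp551 and Dapk1 (Pearson r 0.864 to 0.887). Those most like the mean of the standard 20S and 19S members were Fam174c, Cdan1, Hspbap1, Pold2 and Pcna (r 0.931 to 0.947), and their log2 fold changes at 5 mM were -0.87, -1.29, -0.88, -1.96 and -1.75. The arrays share dose and BeadChip, so these r values are a description over 18 arrays and carry no test.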

How the data were processed

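RNA of 18 AML12 samples was measured on Illumina BeadChips. Per the file headers, the deposited table gives a signal intensity and a detection p-value for each of 45281 probes and array, with no normalization stated. The authors also deposited processed log2 values. The submitters' processing notes name lumi, with no version in the sources used here, and how the low end of these log2 values was transformed is not known. They served as an alternative.

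Intensities were background-corrected against the detection p-values and quantile-normalized with neqc (offset 16, limma 3.58.1, statmod 1.5.0, R 4.3.3), which draws low signals toward log2 values of 4 and understates their folds. The test took in 20536 probes, 45.4% of all, each with a detection p under 0.05 on 4 or more arrays. A gene was represented by its tested probe with the highest mean. Of all probes, 34885 had 1 symbol, 18 several and 10378 none, and 34807 matched a RefSeq gene. One limma model with a mean per group (14 residual degrees of freedom) gave 5 comparisons, with calls at a Benjamini-Hochberg adjusted p under 0.05 over all tested probes. The steps were tested on simulated data. Tables and figures used Python 3.11.15, numpy 2.4.6, pandas 2.3.3 and matplotlib 3.10.9. The number of arrays limits the precision. No set test was made.

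Every member was named and counted by role. Values per array were given for the largest changes of each comparison and for Psmb5 to Psmb10, Psme1 and Psme2, and from each other list the 3 genes with the smallest adjusted p at 5 mM, plus Nfe2l1, Nfe2l2 and Adrm1. Antigen-processing genes were given in full, and further values per array (Psmd14, Psmg2, Psme3, Psmb5 to Psmb7 at all doses, Tapbp) were chosen after they were seen. Members and lists (binding and assembly factors, NRF1 and NRF2, ubiquitin, antigen processing, proliferation and cell type markers) were chosen with earlier results of these data known. Replicates of 1 group correlated at r 0.9885 to 0.9952, with 0 identical pairs. Arrays of the same replicate number did not deviate together (25 pairs, r -0.0412 to 0.0538), so the numbers were not used as pairs. The alternatives changed normalization, filter, probe rule, samples, spread prior, BeadChip or replicate terms, or left out arrays.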

Additional observations from a re-analysis of the deposited data

Results flagged for a closer look

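Among 168 sets of 4 or 5 arrays of 1 gene at 1 dose, 3 held an array set far from the others by Dixon's test at 95%, or 1.79%, where chance gives about 1 in 20. Psmb6 at 1 mM had replicate 1 lowest, at 11.78 against 12.04 for the next. Psme1 at 1 mM had the same replicate highest, at 11.27 against 10.99. That array was the only octanoate array on the first BeadChip, and whether BeadChip accounts for its position was not tested. Psmd7 in PBS had replicate 3 highest, at 11.78 against 11.64.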

How the results depend on the processing

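Under 30 alternatives, the members called in the same direction in every one that held them were Psmb10 at 2 mM over PBS, Psmb10, Psmb9, Psmc3ip, Psmd14 and Psmg2 at 5 mM over PBS, and Psmb10, Psmb9 and Psmc3ip at 5 over 2 mM. Psmb9 had a value in 29 of the 30, since its probe was not among those detected on all 18 arrays. Of 60 calls, median scaling kept 23, BeadChip as a fixed term 15, BeadChip as a random block 55, the authors' processed values 58, and leaving out the 3 arrays set apart 48. BeadChip as a fixed term reversed Psmb6 (-0.11 at 2 mM and -0.19 at 5 mM), Psmb8 (-0.35 and -0.23) and Nfe2l2 (-0.04 and -0.09); each rests on 1 mM replicate 1. It gave 1 higher and 0 lower at 1 mM (median -0.10), 1 and 1 at 2 mM (-0.14), 2 and 5 at 5 mM (-0.24), 0 higher at 2 over 1 mM and 4 lower at 5 over 2 mM. Median scaling gave 0 higher at 1 mM (median -0.23), 1 higher and 4 lower at 2 mM (-0.18), 3 and 8 at 5 mM (-0.13), 0 and 0 at 2 over 1 mM (0.07), and 2 lower at 5 over 2 mM (0.03), where the medians of all genes were -0.12, -0.04, 0.12, 0.10 and 0.18. Fitting only the 2 groups compared left 3 lower at 1 mM and 0 higher at 2 over 1 mM. Without the 3 arrays set apart, 1 was lower at 1 mM and 0 higher at 2 over 1 mM. The mean of a gene's probes gave 16 lower at 2 mM (median -0.12), medians of -0.22 at 5 mM and -0.08 at 5 over 2 mM, and 0 higher and 2 lower at 2 over 1 mM. The authors' values gave 2 lower at 2 over 1 mM, and 2 higher and 12 lower at 5 over 2 mM. Probes detected on all 18 arrays, and those detected at p under 0.01, each gave 2 lower at 2 over 1 mM, and the latter 2 higher at 5 over 2 mM. The robust, trended prior gave 2 lower at 2 over 1 mM, and 2 higher and 11 lower at 5 over 2 mM. The replicate block, whose numbers do not pair the arrays, kept 51 of 60 calls and gave 0 higher at 2 over 1 mM, and 2 higher and 4 lower at 5 over 2 mM. Leaving out 1 array gave 2 to 4 higher and 3 to 6 lower at 1 mM (median -0.07 to -0.03), 4 to 6 and 6 to 12 at 2 mM (-0.11 to -0.07), 3 to 7 and 15 to 20 at 5 mM (-0.20 to -0.18), 0 to 1 and 1 to 2 at 2 over 1 mM (-0.04 to -0.01), and 1 to 2 and 3 to 7 at 5 over 2 mM (-0.13 to -0.08). The arrays that moved a count by over 1.5 times were, at 5 mM, PBS replicate 2 (4 higher) and 5 mM replicate 4 (3 higher), at 2 mM PBS replicate 1 (6 lower), and at 1 mM PBS replicate 2 and 1 mM replicates 1, 3 and 4 (3 lower) and 1 mM replicate 1 (4 higher). At 2 over 1 mM they were 1 mM replicates 1 and 2 and 2 mM replicates 2, 4 and 5 (0 higher) and 2 mM replicate 5 (2 lower), and at 5 over 2 mM PBS replicate 2 and 5 mM replicate 1 (2 higher) and 5 mM replicate 1 (3 lower). Other causes were not tested. Psmb8 and Psmb9 lay near background, which limits the precision of their folds.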
